A study of Mus musculus with 35 samples.

Results

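The comparison described here asks whether acetate changed transcription in the medial prefrontal cortex (mPFC) differently in Shank3-deficient mice (KO) and in wild-type mice (WT). It takes all 35 of the 35 bulk RNA-seq libraries of the series. The groups were KO given antibiotics and acetate (KO_abx_and_acetate, n = 4), KO given antibiotics (KO_abx, n = 3), KO given acetate (KO_acetate, n = 5), KO given water (KO_control, n = 4), WT given antibiotics and acetate (WT_abx_and_acetate, n = 4), WT given antibiotics (WT_abx, n = 4), WT given acetate (WT_acetate, n = 5) and WT given water (WT_control, n = 6). The acetate response of a genotype is the level with acetate minus the level without it, taken once under antibiotics and once without them and averaged with equal weight. The quantity followed throughout, called the log2 difference, is the KO response minus the WT response. It is positive where acetate moved a gene more upward, or less downward, in KO. Strain, age, antibiotic, acetate dose and the deleted part of Shank3 are not stated in the sources used here. Libraries are named by group and number, and nothing in the labels says that each came from its own animal; the p-values cover the spread from library to library, which may be technical.

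Acetate is a short-chain fatty acid that gut bacteria release from fibre and that crosses into the brain. Cells join it to coenzyme A through acetyl-CoA synthetases, and the acetyl-CoA so made feeds the citric acid cycle, fatty acid and cholesterol synthesis, and the acetylation of histones, which opens chromatin. Shank3 is a scaffold of the postsynaptic density of excitatory synapses, where it ties glutamate receptors to the cytoskeleton, and the prefrontal cortex is one of the regions studied for social behaviour in its mutants.

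Recovered depth ran from 12.8 to 28.0 M reads a library, RNA integrity numbers from 8.8 to 9.3, and the sex labels gave 15 females and 20 males. Females were 3 of 4 in KO_abx_and_acetate, 1 of 3 in KO_abx, 2 of 5 in KO_acetate, 2 of 4 in KO_control, 1 of 4 in WT_abx_and_acetate, 2 of 4 in WT_abx, 1 of 5 in WT_acetate and 3 of 6 in WT_control, and sex was a term of the fit. Cortical excitatory markers were present, with means of 12.05 log2 CPM for the kinase gene Camk2a and 4.36 for the cortical transcription factor gene Emx1. The level of Shank3 lay between 4.07 and 5.11 log2 CPM in KO libraries. Among libraries labelled WT, WT_abx 4 (7.48), WT_acetate 2 (7.80) and WT_acetate 5 (8.08) were the lowest in Shank3, and the same 3 held Acr, the gene downstream of Shank3, at 4.56, 4.46 and 3.62 log2 CPM. The other WT libraries had Shank3 at 8.22 to 8.85 and Acr at -0.46 to 0.83, and KO libraries had Acr at 5.04 to 5.78. The genotype labels of these 3 libraries are therefore in doubt, and the reason was not tested. Y-linked genes went against the sex label in WT_acetate 2, WT_acetate 4, WT_acetate 5 and WT_abx 3. They stood at 4.83% and 5.41% of the male median in WT_acetate 2 and WT_acetate 4, which are labelled male. In WT_acetate 5 and WT_abx 3, which are labelled female, they stood at 34.3% and 108%. KO_control 1, WT_abx 4 and KO_acetate 1 lay farthest out on the first principal components. For some results, values without these libraries are given as well. The levels of single genes below keep all libraries under their labels.

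No gene passed the threshold for the log2 difference. Of 14870 genes, limma called 0 (0%) at an adjusted p under 0.05, and the smallest adjusted p was 0.854. At an unadjusted p under 0.05 there were 788 genes (5.3%), of which 399 (2.68%) were positive and 389 (2.62%) negative. The log2 difference was above 0 in 7378 genes (49.6%), its median was -0.0012, and genes other than the outermost 5% at either end lay between -0.34 and 0.32. The median standard error (SE) was 0.12. Without the 3 libraries of intermediate Shank3, 1 gene passed, the mannosyltransferase gene Tmtc1, which lies on chromosome 6. The Tmtc1 log2 difference was then -0.47 with an adjusted p of 0.00888 by limma, against -0.33 ± 0.10 (SE) and an adjusted p of 0.877 with all libraries. Values below are therefore descriptions of size and error, and the counts of list members stand beside these shares for all genes.

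For the responses within each genotype, few or no genes passed the threshold. More genes had an unadjusted p under 0.05 than for the log2 difference. The median SE was also smaller, at 0.09 in KO and 0.08 in WT, against 0.12 for the log2 difference. In KO, limma called 0 genes, with 1751 (11.8%) at an unadjusted p under 0.05. In WT it called 1 gene (0.00672%), Klhl23, a Kelch-family gene on chromosome 2, with 1495 genes (10.1%) at an unadjusted p under 0.05. Klhl23 rose with acetate in WT by 0.27 ± 0.04 on the log2 scale (adjusted p = 0.0112, limma), and its KO response was 0.05 ± 0.05. It stood at 6.19, 6.21, 6.26 and 6.24 log2 CPM in WT_abx_and_acetate, against 5.93, 6.02, 6.01 and 5.89 in WT_abx. In WT_acetate it was at 6.25, 6.04, 6.15, 6.31 and 6.02, against a lowest value of 5.76, a median of 5.90 and a highest of 5.97 in WT_control. All WT libraries given acetate thus lay above the WT libraries of the same background that were not. Klhl23 is described because it was called in this response, which favours such separation, and the share of all genes that separate was not counted. Without WT_abx 1 limma called 0 genes in WT, and without WT_abx_and_acetate 4 it called 4. It called 2 without the libraries of intermediate Shank3, 13 without those against their sex label and 0 without those farthest out. The genotype comparison itself did not call Klhl23, whose log2 difference was -0.21 ± 0.06 (adjusted p = 0.874, limma).

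Genes of cholesterol synthesis and uptake all lay on the same side. All 24 measured members had a log2 difference above 0, against 49.6% of all genes, with a median of 0.24 and a range of 0.02 to 0.47. At an unadjusted p under 0.05 there were 15 of 24, all positive, against 2.68% of all genes; 0 passed after adjustment over all genes. The KO response was above 0 in 24 of 24 members (50.2% of all genes) with a median of 0.19, and 18 of them had an unadjusted p under 0.05 (5.91% of all genes). The WT response was below 0 in 17 of 24 (50.2% of all genes) with a median of -0.06, but its backgrounds differed in sign. Under antibiotics 22 of 24 were below 0 (50.7% of all genes, median -0.11), and without them 15 of 24 were above 0 (50.3% of all genes, median 0.07). Averaged over backgrounds, the KO response in 17 of 24 members was above 0 and the WT response below 0, as in 19.4% of all genes.

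The members span the pathway. Hmgcs1, which joins acetyl units into HMG-CoA at the start, had a log2 difference of 0.35 ± 0.10 (SE). The mevalonate kinases Mvk (0.30 ± 0.09) and Pmvk (0.21 ± 0.06) and the isopentenyl diphosphate isomerase Idi1 (0.47 ± 0.12) follow in the pathway. Squalene epoxidase, Sqle, had 0.36 ± 0.10 and the later sterol oxidase Msmo1 0.36 ± 0.10, whereas lanosterol synthase, Lss, between them in the pathway, had 0.02 ± 0.14. The sterol sensor Insig1 had 0.25 ± 0.10. The adjusted p by limma was 0.854 or more for each of them.

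**Figure D1:**
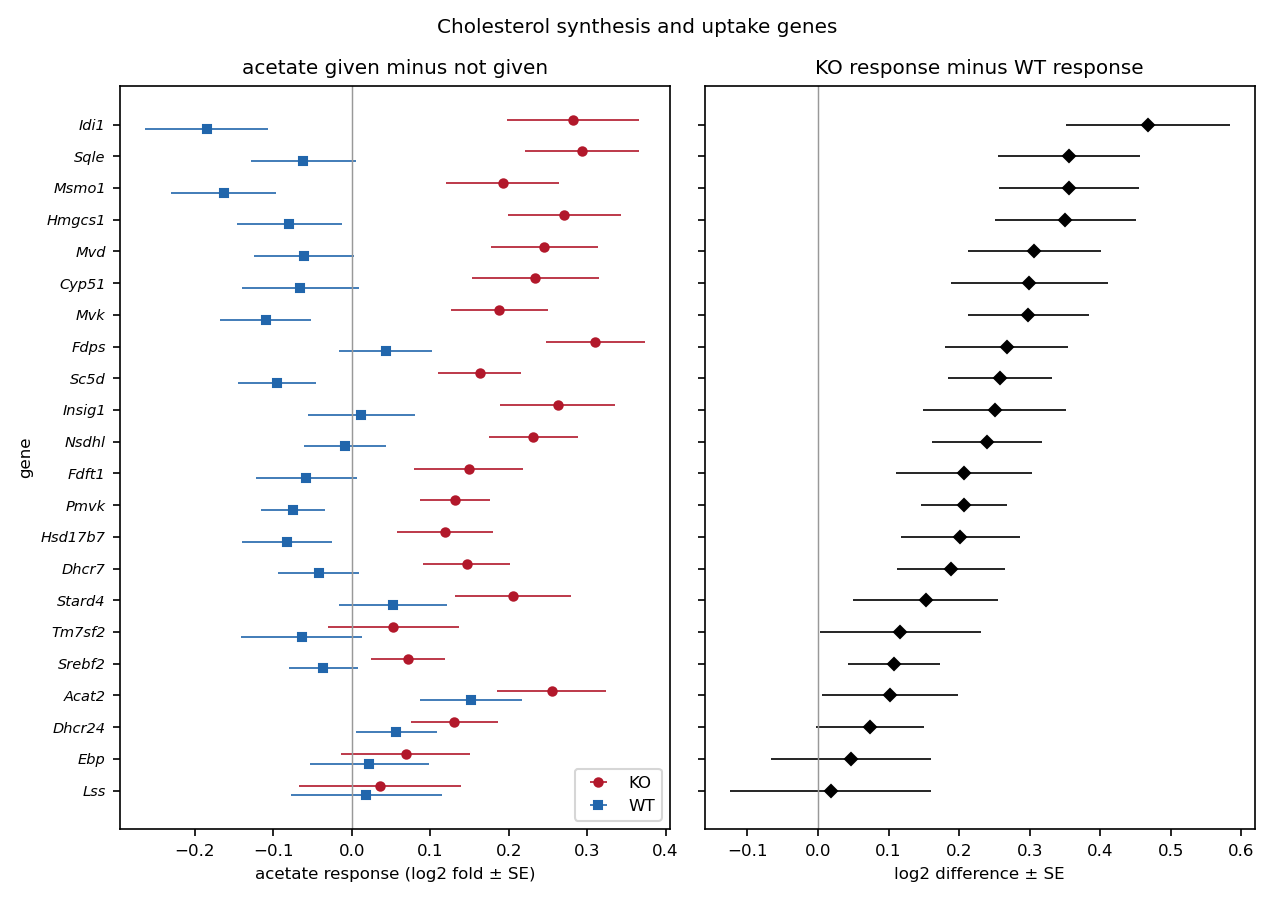
Cholesterol genes (rows), 22 of the 24 measured, are drawn with the acetate response in KO and in WT on the left (log2 fold ± SE) and with the KO response minus the WT response on the right (log2 difference ± SE). All 22 points on the right lie above 0, from 0.02 for Lss to 0.47 for Idi1.

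Idi1 (chromosome 13, 8885501 to 8892451, GRCm38, plus strand) shows the levels behind these values. It was at 5.73, 6.08, 5.73 and 5.82 log2 CPM in KO_abx_and_acetate, against 5.20, 5.62 and 5.54 in KO_abx. In WT_abx_and_acetate it was at 5.59, 5.38, 5.53 and 5.76, against 6.18, 5.85, 5.77 and 5.86 in WT_abx. Under antibiotics the groups with and without acetate did not overlap in either genotype, and the acetate group lay above in KO and below in WT. Idi1 was named for its small p of the log2 difference, which favours such separation. The share of all genes that separate in this way was not counted. Without antibiotics Idi1 was at 5.72, 5.87, 5.59, 6.02 and 5.62 in KO_acetate, against 5.60, 5.32, 5.84 and 5.45 in KO_control. WT_acetate had 5.64, 5.55, 5.55, 5.57 and 5.84, against a lowest value of 5.47, a median of 5.66 and a highest of 5.91 in WT_control. These groups overlapped in both genotypes. The log2 difference of 0.47 corresponds to a ratio of 1.38 between the KO and WT responses and consisted of 0.67 under antibiotics and 0.26 without them.

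**Figure D2:**
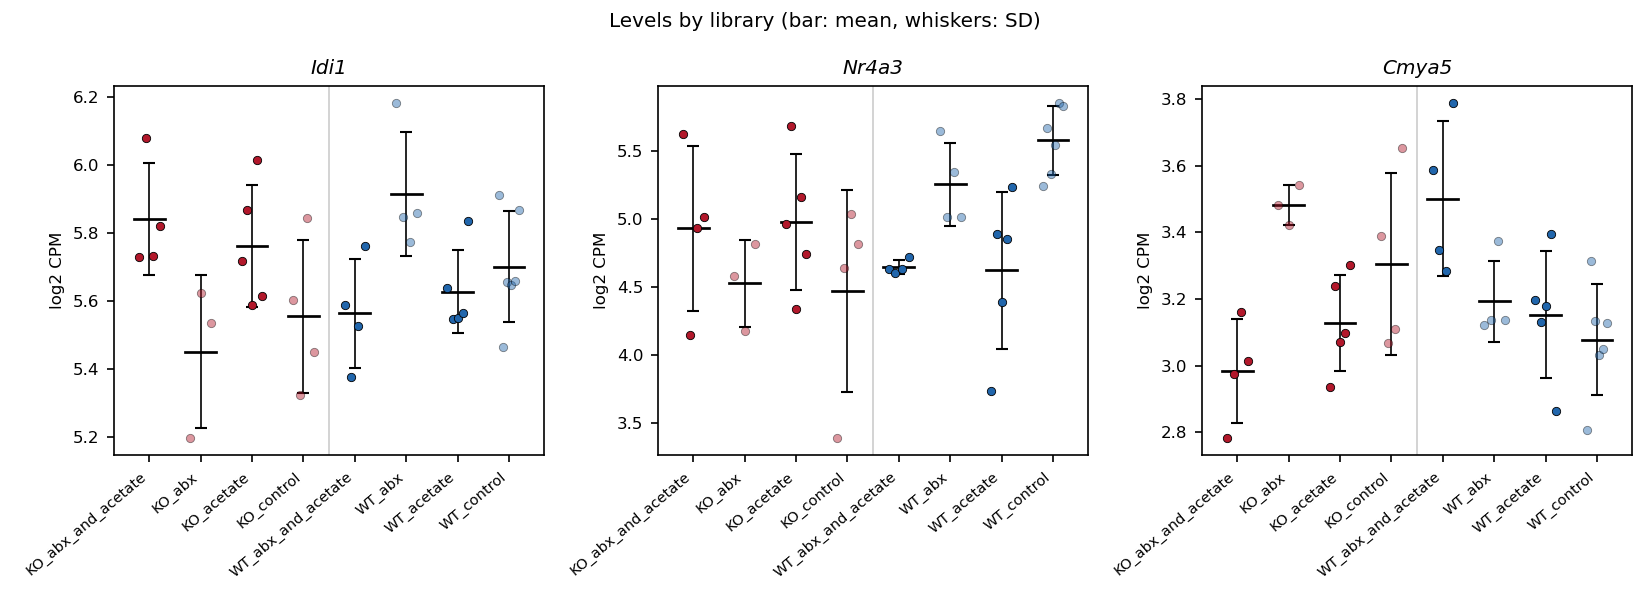
Levels of Idi1, Nr4a3 and Cmya5 (log2 CPM) are plotted by library in the 8 groups, KO in red and WT in blue, with bars for the mean and whiskers for the SD. For Idi1 the KO_abx_and_acetate points lie above all KO_abx points and the WT_abx_and_acetate points below all WT_abx points.

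The score of the cholesterol list is a library's mean over the members, Idi1 among them, after each member was centred on its mean of 35 libraries. It was 0.055 to 0.212 in KO_abx_and_acetate, against -0.078 to -0.025 in KO_abx, and -0.112 to -0.014 in WT_abx_and_acetate, against 0.029 to 0.085 in WT_abx. None of these pairs of groups overlapped. Other lists separated in single pairs too. In KO under antibiotics, the oxidative phosphorylation score was -0.0378 to 0.0435 with acetate, against -0.193 to -0.042 without it. In WT under antibiotics, the GABA synapse score was 0.063 to 0.075 with acetate, against -0.167 to 0.033 without it. The share of lists that separate was not counted. Since the cholesterol score includes Idi1 and the list was chosen with earlier results of these data known, its separation is not separate evidence. The score averaged 0.082 ± 0.085 in KO_acetate (SD, n = 5) and -0.102 ± 0.112 in KO_control (SD, n = 4), and -0.0099 ± 0.105 in WT_acetate (SD, n = 5) and -0.0592 ± 0.055 in WT_control (SD, n = 6), with overlap in both genotypes. Separately, the median log2 difference was 0.28 under antibiotics (24 of 24 above 0, against 50.2% of all genes) and 0.14 without them (22 of 24, against 49.3%). Leaving out single libraries gave medians of 0.21 to 0.28 with 23 or 24 members above 0. The median became 0.24 without the libraries of intermediate Shank3, 0.21 without those against their sex label and 0.28 without those farthest out.

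**Figure D3:**
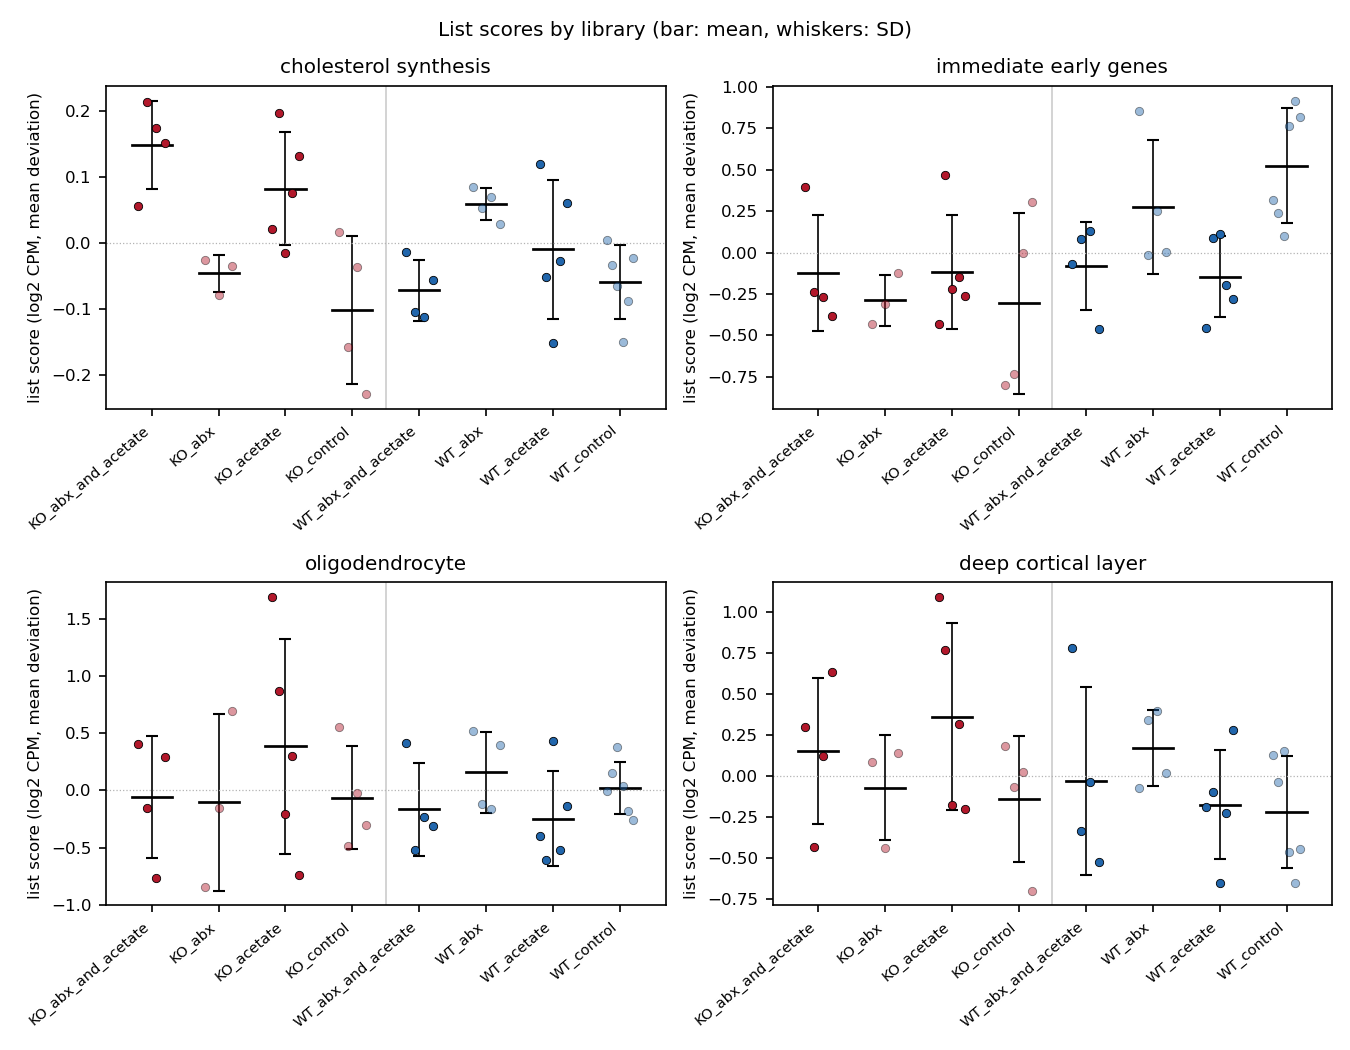
Scores of 4 gene lists (mean deviation in log2 CPM) are plotted by library in the 8 groups, with bars for the mean and whiskers for the SD. The cholesterol panel shows antibiotic groups that separate by acetate in opposite directions in KO and WT. In the early gene panel WT_control has the highest mean, 0.53, and its points overlap those of other groups.

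Sterol-regulated genes carry the sterol element, to which SREBP transcription factors bind, and the stretch before Hmgcs1 is shown because this member holds a copy in its proximal promoter. It lies at chr13:119690101-119690350 (GRCm38.p6, plus strand, from the RefSeq promoter table), with the TCACNCCAC match in capitals.
Hmgcs1: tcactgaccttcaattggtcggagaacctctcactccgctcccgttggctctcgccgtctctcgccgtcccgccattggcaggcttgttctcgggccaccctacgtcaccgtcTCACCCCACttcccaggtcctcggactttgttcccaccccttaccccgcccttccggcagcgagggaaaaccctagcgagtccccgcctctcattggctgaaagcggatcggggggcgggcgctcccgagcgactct
Searched on both strands in the 250 bases before the start, TCACNCCAC occurred in 1 of 17 list members with an entry and in 1.05% of 32851 promoters. The shares differ in unit: members were counted as genes, with a match in any entry, and promoters as single entries. A match is only a match of letters, and other forms of the element were not searched.

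Immediate early genes, which neurons switch on shortly after synaptic activity and which largely encode transcription factors, had a median log2 difference well above 0. A log2 difference above 0 was found in 33 of 34 measured members (49.6% of all genes), with a median of 0.69 and a range of -0.11 to 1.45. There were 20 members at an unadjusted p under 0.05, all positive, against 2.68% of all genes, and 0 passed after adjustment. Here the WT response had the larger size. It was below 0 in 32 of 34 members (50.2% of all genes) with a median of -0.52, and 21 of these had an unadjusted p under 0.05 (4.93% of all genes). The KO response was above 0 in 26 of 34 (50.2% of all genes) with a median of 0.17. At an unadjusted p under 0.05, 3 members were positive, near the share of 5.91% of all genes.

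Among transcription factors, the nuclear receptor Nr4a3 had a log2 difference of 1.15 ± 0.31 (SE), Klf2 0.96 ± 0.28, the AP-1 subunits Fosl2 0.79 ± 0.26 and Fos 1.20 ± 0.51, and Nr4a2 1.25 ± 0.50. The kinase gene Sik1 had 1.08 ± 0.31, and Arc, whose protein removes AMPA receptors from synapses, had 1.23 ± 0.56. Not every activity gene shared this size: Npas4, a factor induced by neuronal activity, was at 0.27 ± 0.49, Egr3 at 0.04 ± 0.36 and Klf6 at -0.11 ± 0.09. Each of these had an adjusted p of at least 0.854 by limma.

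**Figure D4:**
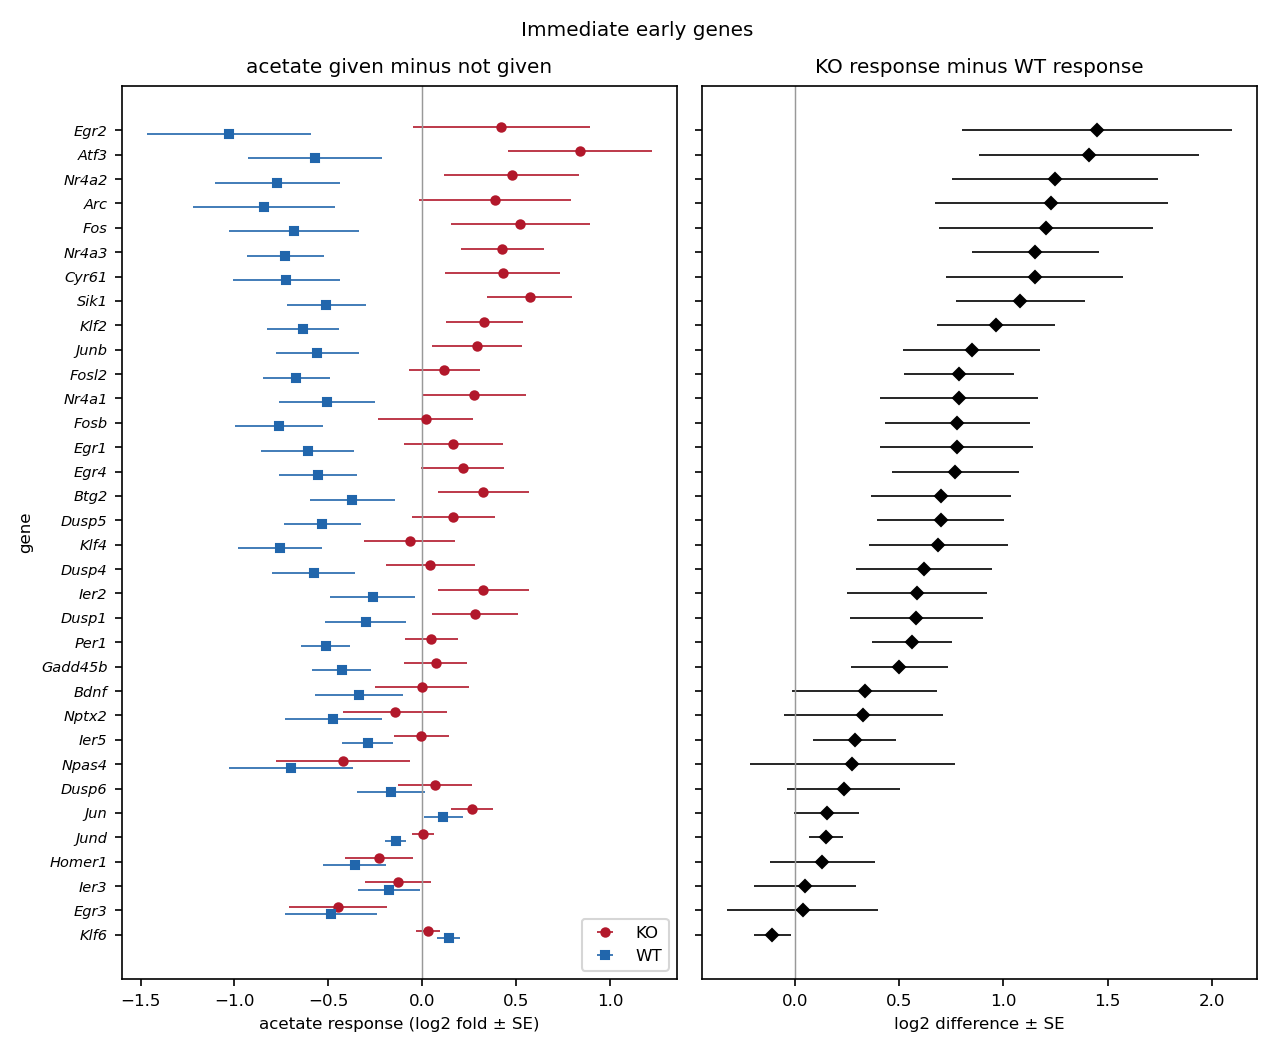
Each of the 34 immediate early genes (rows) is drawn with its acetate response in KO and in WT on the left (log2 fold ± SE) and with the KO response minus the WT response on the right (log2 difference ± SE). Most WT points lie below 0 and most KO points near or above it, and Klf6 is the only member below 0 on the right.

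Nr4a3 (chromosome 4, 48045153 to 48086447, GRCm38, plus strand) shows the levels behind these values in the same way. It was at 5.63, 4.15, 4.94 and 5.01 log2 CPM in KO_abx_and_acetate, against 4.58, 4.18 and 4.82 in KO_abx, and at 4.96, 5.69, 4.34, 5.16 and 4.74 in KO_acetate, against 3.39, 4.64, 5.04 and 4.81 in KO_control. Both KO pairs overlapped. In WT_abx_and_acetate it was at 4.64, 4.60, 4.63 and 4.72, against 5.65, 5.02, 5.34 and 5.01 in WT_abx, with no overlap. WT_acetate had 3.74, 4.89, 4.39, 4.85 and 5.24, against a lowest value of 5.24, a median of 5.61 and a highest of 5.85 in WT_control. All 5 WT_acetate libraries lay at or below the lowest WT_control library. Nr4a3 too was named for its small p of the log2 difference, and the share of all genes that separate in this way was not counted. The ratio of the KO to the WT response was 2.22, with log2 differences of 0.88 under antibiotics and 1.42 without them.

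The early gene score averaged -0.125 ± 0.351 in KO_abx_and_acetate (SD, n = 4) and -0.289 ± 0.153 in KO_abx (SD, n = 3), and -0.119 ± 0.345 in KO_acetate (SD, n = 5) and -0.307 ± 0.547 in KO_control (SD, n = 4). It averaged -0.0801 ± 0.267 in WT_abx_and_acetate (SD, n = 4) and 0.273 ± 0.405 in WT_abx (SD, n = 4), and -0.146 ± 0.244 in WT_acetate (SD, n = 5) and 0.525 ± 0.346 in WT_control (SD, n = 6). The WT groups without acetate had the highest means, and the groups with and without acetate overlapped in each genotype and background. The value without antibiotics includes the difference between KO_control and WT_control. Within WT_control, the 3 female libraries scored 0.763, 0.917 and 0.815 and the 3 male libraries 0.319, 0.238 and 0.101; the part of sex beyond the additive term was not tested. By background, the median log2 difference was 0.42 under antibiotics (31 of 34 above 0, against 50.2% of all genes) and 0.84 without them (30 of 34, against 49.3%). It ran from 0.53 without WT_abx 1 to 0.79 without KO_control 4, and was 0.63 without the libraries of intermediate Shank3, 0.62 without those against their sex label and 0.74 without those farthest out.

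Many early genes carry cyclic AMP response elements, the sites of the activity-regulated factor CREB, and the stretch before Nr4a3 is shown because it holds several copies of the TGACG core. It lies at chr4:48045055-48045152 (GRCm38.p6, plus strand, from the RefSeq promoter table) and ends before the first annotated transcript start; matches on either strand are in capitals.
Nr4a3: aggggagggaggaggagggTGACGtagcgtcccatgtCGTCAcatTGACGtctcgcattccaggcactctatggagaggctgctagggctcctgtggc
TGACG was present on either strand in the 250 bases before the start of 18 of 26 list members with an entry, and in 17.8% of 32851 promoters. Here too members were counted as genes, with a match in any entry, and promoters as single entries. No test was made of these shares.

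Acetate itself enters metabolism through a short set of genes, whose median stayed close to that of all genes. Of 18 members for acetate activation and acetyl-CoA supply, 10 had a log2 difference above 0, with a range of -0.51 to 0.27. The median was 0.02, with 0.07 under antibiotics and -0.02 without them, and it was -0.0143 without WT_acetate 5. The mitochondrial acetyl-CoA synthetase Acss1 was the only member at an unadjusted p under 0.05, with a log2 difference of 0.27 ± 0.10, a KO response of 0.05 ± 0.07 and a WT response of -0.22 ± 0.07. Its nuclear and cytosolic counterpart Acss2 had 0.00 ± 0.11. The citrate carrier Slc25a1 had 0.14 ± 0.07, citrate synthase, Cs, 0.09 ± 0.05, and ATP citrate lyase, Acly, 0.08 ± 0.07. Of 11 measured monocarboxylate transporters and short-chain fatty acid receptors, 5 were above 0, with a median of -0.09 that became 0.0079 without WT_control 5. The neuronal transporter Slc16a7 had -0.20 ± 0.10, Slc16a3 0.37 ± 0.21 and the endothelial and glial Slc16a1 0.20 ± 0.14. The receptor genes Ffar2, Ffar3 and Hcar2 have no value among the genes tested.

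Enzymes that write, remove and read histone acetylation showed little displacement as groups. Acetyltransferases had 8 of 17 members above 0 and a median of -0.0017 (-0.06 under antibiotics, 0.04 without them), with Kat6b at -0.19 ± 0.07, Clock at -0.15 ± 0.07 and Hat1 at 0.22 ± 0.10. Deacetylases and sirtuins had 9 of 18 above 0 and a median of -0.006, with Hdac5 at 0.22 ± 0.10, the mitochondrial Sirt3 at 0.12 ± 0.08 and Sirt2 at 0.19 ± 0.13. Bromodomain readers had 18 of 24 below 0 (50.4% of all genes) and a median of -0.06, or -0.03 without WT_abx_and_acetate 4. Their median was -0.10 under antibiotics and 0.0019 without them. Histone methyltransferases and demethylases had 26 of 34 below 0, a median of -0.06 and 5 members that were negative at an unadjusted p under 0.05 (2.62% of all genes), among them Ash1l at -0.22 ± 0.06 and Kdm4c at -0.18 ± 0.06. The methylation median was -0.14 under antibiotics, where 3 of 34 were above 0, and 0.02 without them, where 20 of 34 were. It was -0.03 without KO_abx 3. The H3K27 demethylase Kdm6b, which neuronal activity induces, had 0.64 ± 0.22, with a KO response of 0.06 ± 0.16 and a WT response of -0.58 ± 0.15.

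At the synapse, where Shank3 acts, most values were below 0 and small. Postsynaptic scaffolds had 29 of 33 members below 0 (50.4% of all genes) and a median of -0.13, with medians of -0.13 under antibiotics and -0.14 without them. At an unadjusted p under 0.05, 5 were negative (2.62% of all genes). In 27 of 33 the value was below 0 in both backgrounds (29.4% of all genes), and in 20 of 33 the KO response was below 0 and the WT response above 0 (19.1% of all genes). The scaffold median was -0.08 without the libraries farthest out. The scaffold gene Sipa1l1 had -0.27 ± 0.11 and the density protein gene Lrrc7 -0.28 ± 0.13. The log2 difference was -0.28 ± 0.18 for Shank3, -0.23 ± 0.14 for Shank1 and -0.19 ± 0.13 for Shank2, and -0.91 ± 0.71 for Acr. The Shank3 log2 difference was -0.31 without the libraries of intermediate Shank3, -0.41 without those against their sex label and -0.10 without those farthest out. In the same order, the Acr log2 difference was -0.52, -0.03 and -1.24. Synaptic adhesion genes had 22 of 26 below 0, a median of -0.13 and 4 negative at an unadjusted p under 0.05 (2.62% of all genes). Slitrk3 was at -0.28 ± 0.07 and Nlgn1 at -0.33 ± 0.14. The adhesion median was -0.18 under antibiotics and -0.09 without them. Its average value was -0.0965 without KO_acetate 1, -0.16 without WT_acetate 5 and -0.0939 without the libraries farthest out. Glutamate receptors were mixed, with 18 of 32 below 0 and a median of -0.02 (-0.07 under antibiotics, 0.0085 without them, and 0.02 without KO_abx_and_acetate 1). The NMDA receptor subunits Grin2a and Grin2b had -0.38 ± 0.12 and -0.38 ± 0.15, and the AMPA receptor partner Shisa9 had 0.27 ± 0.11. For potassium channels 17 of 28 were below 0 (median -0.09), and for the GABA synapse 16 of 23 (median -0.07). Without the libraries against their sex label these medians were -0.15 and -0.12, and without KO_acetate 1 that of the GABA synapse was -0.02.

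**Figure D5:**
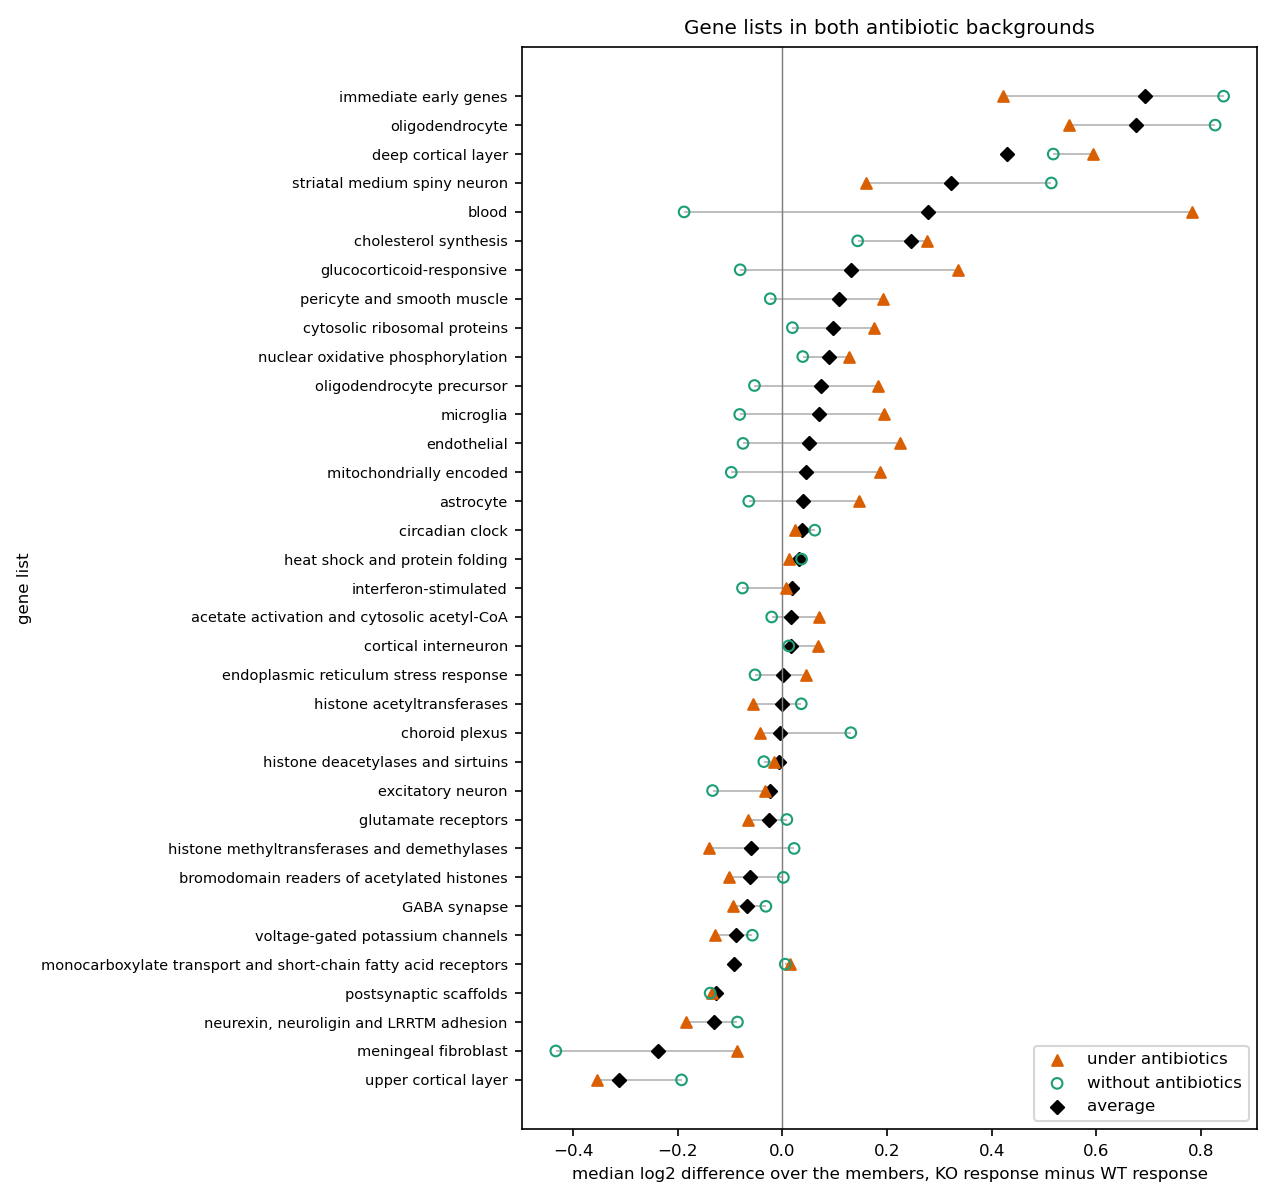
Median log2 differences (KO response minus WT response) of 35 gene lists (rows) are drawn under antibiotics, without them and as the average. Immediate early, oligodendrocyte, deep layer and cholesterol lists lie right of 0 in both backgrounds, and scaffold, adhesion and upper layer lists lie left of 0 in both.

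Besides list members, the rule for single genes named those with the smallest p. Cmya5, a large gene best known in muscle (chromosome 13, 93040713 to 93144724, GRCm38, minus strand), had the smallest p of all. It was at 2.78, 2.97, 3.16 and 3.01 log2 CPM in KO_abx_and_acetate, against 3.48, 3.42 and 3.54 in KO_abx, and at 3.59, 3.35, 3.28 and 3.79 in WT_abx_and_acetate, against 3.12, 3.14, 3.37 and 3.14 in WT_abx. KO libraries given both agents all lay below those given antibiotics alone, and the WT groups overlapped, through WT_abx 3, with the acetate group higher on average. The share of all genes that separate in this way was not counted here either. Without antibiotics it was at 2.93, 3.24, 3.07, 3.10 and 3.30 in KO_acetate, against 3.39, 3.07, 3.11 and 3.65 in KO_control. WT_acetate had 3.20, 3.13, 3.18, 3.39 and 2.87, against a lowest value of 2.81, a median of 3.09 and a highest of 3.31 in WT_control. Both of these pairs overlapped. The Cmya5 log2 difference was -0.57 ± 0.13 (adjusted p = 0.854, limma), made of -0.87 under antibiotics and -0.27 without them, and the Cmya5 log2 difference became -0.64 (adjusted p = 0.156) when the libraries of intermediate Shank3 were left out.

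Other genes with negative values were Sestd1, whose protein holds a SEC14-like domain (-0.36 ± 0.09), the ubiquitin ligase gene Cblb (-0.33 ± 0.08) and the formin gene Diaph2 (-0.28 ± 0.07). Larger negative sizes were found for Zbtb7c, a zinc finger gene (-0.74 ± 0.20), 4933407L21Rik (-0.66 ± 0.17), Prr16 (-0.60 ± 0.17) and Armc2 (-0.50 ± 0.14). Each had a KO response below 0 and a WT response above 0. On the positive side were Arid5a, an RNA-binding protein gene (0.52 ± 0.14), the guidance receptor gene Nrp1 (0.49 ± 0.14), the zinc finger gene Zfp948 (0.44 ± 0.12) and the endosomal ATPase gene Ehd4 (0.33 ± 0.09). Rad54b, which acts in DNA repair, had 1.05 ± 0.29 from a mean level of only 0.02 log2 CPM. For Arid5a and Ehd4 most of the size lay in the WT response, at -0.45 ± 0.09 and -0.25 ± 0.06, with KO responses of 0.07 ± 0.10 and 0.08 ± 0.07.

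Genes of protein synthesis and respiration were described as lists. Cytosolic ribosomal protein genes had 73 of 78 members above 0 with a median of 0.10 and a range of -2.08 to 0.24. A mean level below 0 log2 CPM, near the floor, was found for 1 member. At an unadjusted p under 0.05, 9 were positive (2.68% of all genes). Examples are Rpl28 at 0.22 ± 0.07 and Rpl3 at 0.16 ± 0.06. How the authors shared reads between these genes and their many processed pseudogenes is not stated in the sources used here. Their medians were 0.18 under antibiotics and 0.02 without them, and their average value was 0.06 without the libraries farthest out and 0.15 without those against their sex label. Nuclear genes of oxidative phosphorylation had 72 of 75 above 0 with a median of 0.09 (0.13 under antibiotics, 0.04 without them). At an unadjusted p under 0.05, 4 of these 75 were positive, against 2.68% of all genes.

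Markers of oligodendrocytes and of cortical layers had some of the medians farthest from 0, although none of these genes passed the threshold in limma. In bulk tissue, fewer cells of a type and less RNA per cell cannot be told apart. All 23 measured of 24 listed oligodendrocyte markers had a log2 difference above 0, with a median of 0.67, such as the lineage factor Sox10 at 0.57 ± 0.25, the myelin gene Opalin at 0.80 ± 0.38 and Nkx6-2 at 0.87 ± 0.44. Only 2 members had an unadjusted p under 0.05, both positive (2.68% of all genes), and libraries of 1 group differed widely. The level of the whole list, given as the list score, ran from -0.770 to 0.406 in KO_abx_and_acetate, -0.850 to 0.692 in KO_abx, -0.741 to 1.694 in KO_acetate and -0.483 to 0.555 in KO_control. It ran from -0.525 to 0.415 in WT_abx_and_acetate, -0.167 to 0.525 in WT_abx, -0.607 to 0.430 in WT_acetate and -0.259 to 0.379 in WT_control. By background the oligodendrocyte median was 0.55 under antibiotics and 0.83 without them. It was 0.48 without KO_acetate 1 and 1.04 without KO_abx 3. Oligodendrocytes make much of the cholesterol of the brain; the part of these markers in the cholesterol values was not tested.

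Deep layer markers had 19 of 19 members above 0 (49.6% of all genes), with a median of 0.43. Among them were Tle4 at 0.43 ± 0.20, Hs3st4 at 0.60 ± 0.31 and Nr4a2, which is also an early gene. Only 2 members had an unadjusted p under 0.05, both positive (2.68% of all genes). The deep layer score ran from -0.198 to 1.088 in KO_acetate and from -0.522 to 0.776 in WT_abx_and_acetate. The deep layer median was 0.59 under antibiotics and 0.52 without them, and 0.67 without the libraries of intermediate Shank3. Upper layer markers had 15 of 15 below 0 (50.4% of all genes), with a median of -0.31. The upper layer median was -0.35 under antibiotics and -0.19 without them. Only 1 member was negative at an unadjusted p under 0.05 (2.62% of all genes). Examples are Rasgrf2 at -0.52 ± 0.19, Cux2 at -0.39 ± 0.22 and Pou3f2 at -0.29 ± 0.17. The part of the layer markers in the early gene and synaptic values was not tested. Striatal markers had 16 of 19 above 0 (median 0.32, or 0.16 under antibiotics and 0.51 without them), with Drd1 at 0.87 ± 0.42, Tac1 at 0.66 ± 0.36 and Foxp1 at -0.19 ± 0.08. KO_acetate 1 scored 2.42 on the striatal list while the rest of KO_acetate lay between -0.150 and 0.051, and the striatal median was -0.0005 without it. The cholesterol and early gene medians, both above 0 without KO_acetate 1 too, are within the leave-one-out ranges given above.

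The antibiotic backgrounds share no library, so each gives its own value of the log2 difference. Across genes, which are not independent replicates, the values under antibiotics and without them had a Pearson r of 0.22, and 58.2% of genes had the same sign. By limma, 0 genes passed under antibiotics, where 561 (3.77%) had an unadjusted p under 0.05, and 0 passed without them, where 543 did (3.65%). In the cholesterol list, 22 of 24 members were above 0 in both backgrounds, and in the early gene list 28 of 34, against 28.9% of all genes. Both lists were chosen with earlier results of these data known. An average above 0 itself favours values above 0 in each background, so these counts are no separate test. The same holds for the scaffold genes below 0 in both backgrounds. The test of the difference between the backgrounds called 0 genes, with 335 (2.25%) at an unadjusted p under 0.05. Its smallest adjusted p was 0.152, for the predicted gene Gm2897, whose log2 difference was 1.41 under antibiotics and -1.22 without them.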

How the data were processed

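Total RNA from mPFC punches was made into strand-marking libraries and sequenced as paired ends, per the labels' protocols. The deposited matrix holds log2 CPM values that the authors made in voom form: each read count, raised by 0.5, was divided by a library size and put on a log2 scale. Of tools, limma is named in the submitters' processing notes, with no version. Taken back from that form, 100% of values were whole reads within 0.01, which gave the depth. The aligner, counting tool, strand setting, genome build and low-count filter are not stated in the sources used here. Dates stand in place of 23 gene names and 12 rows repeat another; these stayed in the tests and were passed over in naming.

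All 35 libraries entered 1 fit in limma 3.58.1 (R 4.3.3) with 8 group means and labelled sex as an additive term, and a prior variance trended on mean level. The log2 difference is the KO response minus the WT response, each the mean of the responses under antibiotics and without them. Tests were 2-sided, adjusted by Benjamini-Hochberg over 14870 genes, with a threshold of 0.05. The script was tested on simulated data. Replicate numbers follow the order of the sample records and pair nothing.

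The members and lists were chosen with earlier results of these data known. Besides list members, the rule named Shank1, Shank2, Shank3 and Acr, the 10 positive and 10 negative genes with the smallest unadjusted p and a mean of at least 0 log2 CPM, and the 3 members with the smallest p in lists described; a few of these genes are not reported here. Other cholesterol and early genes, the acetate enzymes, Camk2a, Emx1, Klhl23, Tmtc1 and Gm2897 were chosen with their values in view. Of the names, 97% matched GENCODE vM21 (GRCm38), used for positions only. Alternatives were other covariates, weights, prior count, centring, a filter on low values and sets of libraries left out.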

Additional observations from a re-analysis of the deposited data

Results flagged for a closer look

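In groups of 4 to 6 libraries, a library was singled out where its gap to the nearest other library took up more of the group's range than Dixon's 95% critical value allows. Of 616 sets of values examined, 39 were singled out; chance gives about 1 in 20 such sets. Values are levels in log2 CPM unless called a score.

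KO_acetate 1 stood apart most often. It was the highest of KO_acetate in the striatal score (2.42, next 0.051) and in the levels of the striatal peptide gene Tac1 (6.02, next 3.60), Shisa9 (6.57) and Ehd4 (4.29). It was the lowest of its group in Egr3 (4.62), Nlgn1 (5.48) and Cblb (4.03). Elsewhere in KO_acetate, Fos was highest in KO_acetate 2 (6.14), and in KO_acetate 3 Grin2b was highest (9.19) and Slc16a3 lowest (1.80).

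In KO_abx_and_acetate, replicate 2 was highest in Slc25a1 (5.07), Pmvk (4.73), Sst (7.81) and mt-Atp8 (9.04) and lowest in Acly (7.50). KO_abx_and_acetate 3 was lowest in Acss2 (5.61) and highest in Clock (6.43), and KO_abx_and_acetate 4 had the highest striatal score (0.191). In KO_control, replicate 1 was highest in Kat6b (6.43) and lowest in Nlgn1 (6.10), and KO_control 3 was lowest in Grin2a (7.80).

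WT_abx_and_acetate 4, the shallowest library at 12.8 M reads, was lowest in Slc16a1 (4.39), Egr3 (5.77) and Rpl3 (8.77) and highest in Pou3f2 (5.63) and Tmtc1 (6.96). WT_abx_and_acetate 3 was highest in Sik1 (4.20, next 4.01). The library labelled WT_abx 4 was highest in Acr (4.56, next 0.45), Zbtb7c (2.58) and Tmtc1 (6.83), WT_abx 1 was highest in Shank2 (8.12) and the library labelled WT_abx 3 highest in Cmya5 (3.37).

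WT_acetate 3 was highest in Acss2 (6.18) and Cs (7.98), and the library labelled WT_acetate 5 was lowest in Slitrk3 (5.78). In WT_control, replicate 1 was highest in Nrp1 (5.52) and lowest in Cblb (3.98) and Acss2 (5.50), and WT_control 3 was lowest in Zbtb7c (1.77).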

How the results depend on the processing

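No paired analysis was possible because the library numbers follow the order of the sample records and pair no samples. The 0 genes called for the log2 difference stayed at 0 in every setting run except 1: without the 3 libraries of intermediate Shank3 limma called 1, Tmtc1, and the count at an unadjusted p under 0.05 ran from 598 without the 3 libraries farthest out to 1051 without KO_acetate 3. The KO response and both within-background comparisons stayed at 0 called in every setting run. The WT response, with 1 gene called, gave 0 without the 3-way term, 26 with array weights, 2 without the libraries of intermediate Shank3, 13 without those against their sex label, 0 without those farthest out, and 0 to 4 when single libraries were left out. The difference between backgrounds, with 0 called, gave 1 (Gm2897) without a trend in the prior variance, 1 with array weights, and 0 to 1 when single libraries were left out. The cause was not tested. With array weights, the mt-Atp8 log2 difference was -0.0194 against 0.13 as reported and that of Slco1c1 -0.0009 against 0.18. The Gm2897 log2 difference, 0.09 as reported, was -0.12 without the 3-way term and ran from -0.0209 without KO_control 4 to 0.2095 without WT_abx_and_acetate 4 when single libraries were left out. Tests by count models were planned and not run, since the deposited values are log2. Centring the libraries to 1 median moved the share of genes above 0 from 49.6% to 44.9% and the median of all genes from -0.0012 to -0.0166. With 3 to 6 libraries a group and a median SE of 0.12, small differences between responses cannot be told from 0, and a p that misses the threshold does not show equal responses.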

Other observations

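The remaining lists are given as values. Glucocorticoid-responsive genes had 15 of 23 members above 0 with a median log2 difference of 0.13 (0.33 under antibiotics, -0.08 without them). At an unadjusted p under 0.05, 3 were positive (2.68% of all genes). Among them were the growth inhibitor gene Ddit4 at 0.68 ± 0.23 (SE) and the NF-kappaB inhibitor gene Nfkbia at 0.38 ± 0.18. Clock genes had 13 of 22 above 0 (median 0.04), heat shock genes 15 of 23 (0.03), genes of the endoplasmic reticulum stress response 12 of 23 (0.0014) and interferon-stimulated genes 13 of 26 (0.02). Interneuron markers had 10 of 19 above 0 (0.02), with the peptide gene Sst at 0.38 ± 0.15, general excitatory markers 4 of 10 (-0.02) and choroid plexus markers 3 of 7 (-0.005). None of these genes passed the threshold in limma.

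Several lists had medians on opposite sides of 0 in the backgrounds. Mitochondrially encoded genes had 11 of 13 above 0 on average (median 0.05), with 13 of 13 under antibiotics (0.19) and 1 of 13 without them (-0.10); the average median was 0.0034 without KO_abx_and_acetate 2 and -0.0046 without the libraries farthest out. Microglial markers had 18 of 23 above 0 (median 0.07, with 0.19 under antibiotics and -0.08 without them), astrocyte markers 11 of 20 (0.04, with 0.15 and -0.06), oligodendrocyte precursor markers 7 of 10 (0.07, with 0.18 and -0.05), endothelial markers 15 of 20 (0.05, with 0.23 and -0.08) and blood genes 7 of 7 (0.28, with 0.78 and -0.19), each given in the same order. Pericyte and smooth muscle markers had 12 of 15 above 0 (0.11, with 0.19 and -0.02). The medians of the stress response (0.05 under antibiotics and -0.05 without them), interferon (0.0065 and -0.08) and choroid plexus lists (-0.04 and 0.13) also lay on opposite sides of 0. Meningeal fibroblast markers, with 13 of 14 below 0 (median -0.24), were below 0 in both backgrounds (-0.09 and -0.43).

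Leaving out 1 library turned the sign of several medians. These were the meningeal median (0.0192 without WT_abx 2, and -0.63 without KO_abx 3), the astrocyte median (-0.04 without WT_abx 1), the endothelial median (-0.0086 without KO_abx 3), the heat shock median (-0.0012 without KO_control 1), the stress response median (-0.03 without KO_control 1), the interferon median (-0.07 without WT_abx 4), the clock median (-0.0059 without KO_abx_and_acetate 1), the interneuron median (-0.0107 without KO_abx 1), the excitatory median (0.03 without KO_acetate 1) and the choroid plexus median (0.05 without WT_abx 2, and -0.34 without WT_abx 4). Other medians kept their sign when single libraries were left out but turned on them in size. The blood median was 0.12 without KO_abx 3 and 0.60 without WT_abx_and_acetate 4, the pericyte median 0.02 without KO_abx 3 and 0.17 without KO_abx 2, and the microglial median 0.02 without WT_abx_and_acetate 4 and 0.13 without KO_control 3. The precursor median was 0.03 without KO_acetate 1 and 0.11 without WT_acetate 2, and the glucocorticoid median 0.07 without KO_abx 1 and 0.22 without KO_control 1.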
